A study of Mus musculus with 12 samples.

Results

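The 30 genes described here encode proteins that build peroxisomes and peroxisomal enzymes of lipid metabolism: 13 peroxins (the Pex genes), 7 enzymes of beta-oxidation, 4 transporters and other membrane proteins, 2 enzymes each of ether lipid synthesis, alpha-oxidation and acyl-CoA or carnitine ester handling. They were chosen by gene symbol, with earlier results of these data known, from 18193 genes that had at least 1 array probe set assigned to a single symbol. All 30 were measured, by 59 probe sets, and for a gene with several, the one with the brightest mean over the 12 arrays was used. Expression was measured with Affymetrix arrays in sciatic nerve lysates and in laser-captured motoneurons of untreated mice aged 2 months, either Gdap1 knockout mice, which lack exon 5 of Gdap1, or wild type mice. The 4 groups were knockout motoneurons, wild type motoneurons, knockout sciatic nerve and wild type sciatic nerve, with 3 arrays each, and 20 ng of RNA was amplified per array. Whether the deletion was confined to any cell type, the strain and whether nerve and motoneurons came from the same mice are not given in the labels, which describe replicates as biological, and p-values measure the spread between these arrays. Per the design text, RNA yield and quality decided which samples went onto arrays.

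Peroxisomes are single-membrane organelles that shorten very long and branched fatty acids and make the first intermediates of ether lipids such as the plasmalogens of myelin. Their matrix proteins are made in the cytosol, bound by the receptors Pex5 or Pex7, docked at Pex13 and Pex14 and pulled across the membrane, after which the ubiquitin ligases Pex2 and Pex10 and the ATPase Pex6 return the receptor for another round. Loss of this system in humans causes Zellweger spectrum disorders, with defects of myelin and of neurons. The protein made from Gdap1 lies in the outer mitochondrial membrane and has also been found on peroxisomes.

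The promoters of 4 members are shown, chosen after their values were seen, among members with a window in the RefSeq promoter table that differed the same way between motoneurons and sciatic nerve under every scaling tried. Pex11g, Ech1 and Hacl1 were lower in motoneurons, by more than the other such members with all arrays of a genotype quantile normalized together and both genotypes averaged, and Pex14 was the only member higher under every scaling. Each window runs from 250 bases before to 50 bases after the annotated gene start and is credited to RefSeq on GRCm38.p6. Pex11g is at chr8:3467599-3467898 on the minus strand, Ech1 at chr7:28825088-28825387 on the plus strand, Hacl1 at chr14:31640916-31641215 on the minus strand and Pex14 at chr4:149099794-149100093 on the minus strand. Capitals mark AGGTCA, the half-site bound by nuclear receptors such as Ppara, and GGGCGG, the GC box, each on either strand.
Pex11g: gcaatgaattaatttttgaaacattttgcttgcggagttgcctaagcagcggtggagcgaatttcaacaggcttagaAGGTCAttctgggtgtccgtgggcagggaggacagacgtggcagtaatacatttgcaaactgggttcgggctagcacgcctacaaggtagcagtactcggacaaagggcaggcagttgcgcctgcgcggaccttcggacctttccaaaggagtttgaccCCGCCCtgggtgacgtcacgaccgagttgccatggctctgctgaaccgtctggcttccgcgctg
Ech1: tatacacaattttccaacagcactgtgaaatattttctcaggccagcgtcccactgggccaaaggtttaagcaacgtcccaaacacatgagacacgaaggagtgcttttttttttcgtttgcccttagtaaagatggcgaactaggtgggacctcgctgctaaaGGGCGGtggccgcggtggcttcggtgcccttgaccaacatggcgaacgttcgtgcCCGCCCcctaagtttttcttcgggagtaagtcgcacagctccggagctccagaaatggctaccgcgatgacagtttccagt
Hacl1: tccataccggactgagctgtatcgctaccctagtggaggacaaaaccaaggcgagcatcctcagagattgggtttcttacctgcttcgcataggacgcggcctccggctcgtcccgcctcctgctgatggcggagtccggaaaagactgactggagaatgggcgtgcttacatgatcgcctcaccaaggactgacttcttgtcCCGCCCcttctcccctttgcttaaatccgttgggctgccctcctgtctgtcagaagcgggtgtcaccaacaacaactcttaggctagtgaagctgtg
Pex14: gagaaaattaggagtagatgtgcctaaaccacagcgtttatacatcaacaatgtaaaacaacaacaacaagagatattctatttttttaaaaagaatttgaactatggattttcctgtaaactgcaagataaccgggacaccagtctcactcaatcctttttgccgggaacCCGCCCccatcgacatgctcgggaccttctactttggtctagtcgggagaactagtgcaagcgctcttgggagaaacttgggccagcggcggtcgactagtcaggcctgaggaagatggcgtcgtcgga
The table held a window for 23 of the 30 members, and 27 windows in all, since some genes have more than 1. Promoters of Abcd2, Amacr, Crat, Hsd17b4, Pex19, Pex2 and Pxmp2 were not used here. GGGCGG stood in 20 of the 27 windows (74.1%), against 35.7% of all 32851 windows of the same length. AGGTCA stood in 3 of 27 (11.1%), against 16.3% of all windows, and Pex11g was the only shown promoter that held it. A pair of AGGTCA copies 1 base apart was in none of the 27 windows and in 0.0396% of all windows. CCAAT was found in 9 of 27 (33.3%) against 37.4% of all windows, and CACGTG in 1 of 27 (3.7%) against 7.15%. All motifs were searched on both strands and none overlaps another in the windows shown.

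Array values are log2 expression values, so a difference of 1 is a doubling. Array medians lay between 6.53 and 6.59 in motoneurons and between 8.29 and 8.40 in nerve, no pair of arrays was identical, and the probe sets of Gdap1 lie in exons 4 and 6, outside the deletion, so Gdap1 (13.23 to 13.36 in knockout and 13.30 to 13.38 in wild type motoneurons) checks nothing about the labels. As deposited, Egr2, 1 of the myelinating Schwann cell markers, read 13.68 to 14.22 in nerve and at most 4.05 in motoneurons. It does not stand for the list. The mean of the 7 measured markers was 13.91 to 14.20 in nerve and 8.27 to 8.58 in motoneurons, above the array medians there. Of the motoneuron markers, 10 of 10 were higher in motoneurons in both genotypes, after the joint quantile normalization described below. As deposited, Chat, which makes acetylcholine, read 4.19 to 5.30 in the motoneuron arrays, below the array medians, whereas the motoneuron regulator Isl1 read 10.95 to 11.72. Motoneuron samples also held astrocyte and oligodendrocyte RNA: Aqp4 read 10.73 to 11.42 and Mog 11.12 to 12.31. The X-inactivation transcript Xist was low in knockout replicate 2 alone among the motoneuron arrays (5.18) and high in knockout replicate 3 and wild type replicate 2 of nerve. Eif2s3y, of the Y chromosome, read 10.95 in motoneuron knockout replicate 2 and 3.19 to 3.80 in the other motoneuron arrays. In nerve it read 5.39 in knockout replicate 3, 4.71 in wild type replicate 2 and 12.58 to 12.77 elsewhere. Nerve wild type replicates 1 and 3 thus read as male and all wild type motoneuron arrays as female, so they came from different mice. Sex was unbalanced between tissues and between motoneuron genotypes, and its part in tissue differences was not tested.

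The largest and most repeatable differences of the 30 genes were between motoneurons and sciatic nerve. The array medians differed between the tissues, which appear to have been scaled separately. The 6 arrays of each genotype were therefore quantile normalized together before this comparison, and the values of the next paragraphs are on that scale. By limma at an adjusted p under 0.05, 6 members were higher and 14 lower in knockout motoneurons than in knockout nerve, and 7 were higher and 13 lower in wild type motoneurons than in wild type nerve. Over all 18193 genes, 44.5% were higher and 31.8% lower in knockout, and 43.1% higher and 30.6% lower in wild type. The members' median difference was -0.27 in knockout and -0.38 in wild type, against 0.25 and 0.23 over all genes. The knockout and wild type comparisons share no array, and 6 members were higher and 13 lower in both. The share of all genes called the same way in both genotypes was not counted. A lower value in a bulk sample can reflect fewer cells that make the transcript or less of it per cell, which cannot be told apart here.

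The direction of many members depended on the scaling, as the plot of tissue differences shows. With the values as deposited, 2 members were higher and 23 lower in knockout (18.9% and 64.1% of all genes), and 1 was higher and 20 lower in wild type (17.7% and 63.7%). With arrays centred on their medians, 19 were higher and 8 lower in knockout (63.1% and 20.5%), and 15 higher and 9 lower in wild type (61.2% and 20%). The median of all genes moved with the scaling, to -0.86 as deposited and 0.92 centred in knockout and to -0.90 and 0.86 in wild type. Under all 3 scalings and in both genotypes, 8 members were lower in motoneurons (Pex2, Pex11a, Pex11g, Agps, Hacl1, Ech1, Pxmp2 and Pxmp4) and 1, Pex14, was higher. How many of all genes met this joint rule was not counted, so whether these numbers are unusual cannot be told.

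**Figure D1:**
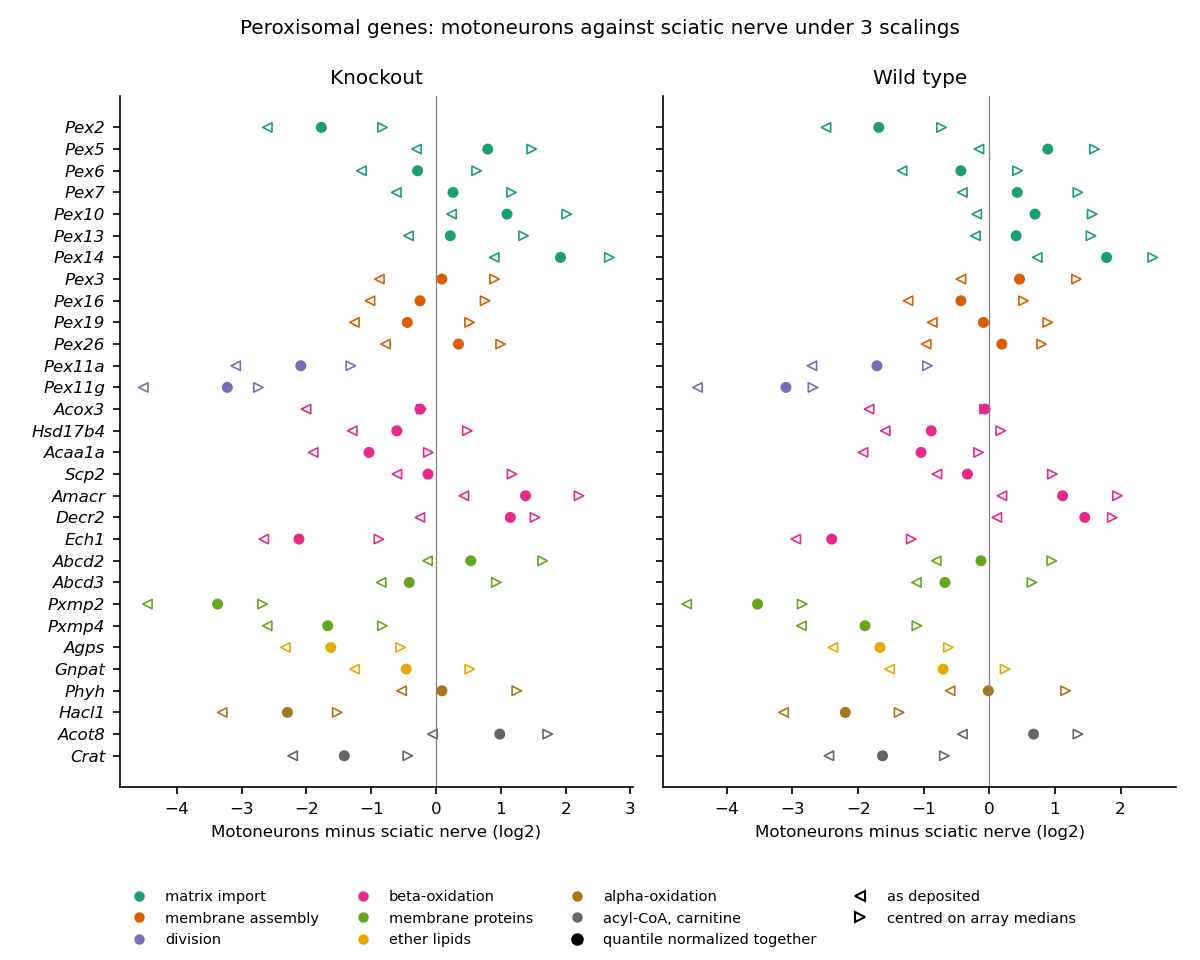
Difference of each member between motoneurons and sciatic nerve (x axis, log2) in knockout (left) and wild type (right), grouped and coloured by role. Filled circles are the 6 arrays quantile normalized together, left-pointing triangles the values as deposited and right-pointing triangles arrays centred on their medians, for n = 3 arrays per group; 8 members lie left of 0 and Pex14 right of 0 under all 3 scalings and passed the test each time.

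Among the genes of matrix protein import, Pex14, a docking protein on the peroxisomal membrane, read 11.02, 11.21 and 11.005 in knockout motoneurons, against 9.18, 9.26 and 9.03 in knockout nerve. In wild type it read 10.71, 10.89 and 10.92 in motoneurons, against 9.04, 9.28 and 8.83 in nerve. Every motoneuron array was above every nerve array, and the differences were 1.92 (SE 0.13, limma adjusted p = 3.12e-06) in knockout and 1.79 (SE 0.17, adjusted p = 4.34e-05) in wild type. Pex2, one of the ubiquitin ligases of the import machinery, went the other way. It read 10.51, 9.81 and 10.16 in knockout motoneurons, against 11.86, 12.004 and 11.92 in knockout nerve, a difference of -1.77 (SE 0.17, adjusted p = 2.55e-05), and differed by -1.69 (SE 0.20, adjusted p = 0.000136) in wild type. Pex10, its partner ligase, was higher by 1.09 in knockout and 0.70 in wild type, and Pex5, the main import receptor, by 0.80 and 0.89, but as deposited Pex10 read 0.24 and -0.19 and Pex5 -0.30 and -0.16. Pex13 passed in wild type alone (0.41, but -0.21 as deposited), and Pex6 and Pex7 in neither genotype.

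The peroxins that shape and divide the organelle were low in motoneurons. Pex11g, a member of the family that elongates the membrane before division, read 7.96, 7.05 and 7.57 in knockout motoneurons, against 10.91, 10.82 and 10.51 in knockout nerve. In wild type it read 7.19, 6.92 and 7.90 in motoneurons, against 10.38, 10.53 and 10.40 in nerve. The groups lay far apart in both genotypes, by -3.22 (SE 0.25, adjusted p = 5.75e-06) in knockout and -3.10 (SE 0.26, adjusted p = 2.26e-05) in wild type, which is 9.32-fold and 8.57-fold lower. As deposited, Pex11g read 5.97 to 7.14 in the motoneuron arrays, on both sides of the array medians. Its fold values rest on these low readings. Its relative Pex11a was lower by a difference of -2.09 (SE 0.31, adjusted p = 0.000345) in knockout and -1.71 (SE 0.32, adjusted p = 0.00188) in wild type. In contrast, none of the 4 genes that insert or anchor membrane proteins (Pex3, Pex16, Pex19 and Pex26) passed in wild type, where they ranged between -0.43 and 0.46, and in knockout only Pex19 did, at -0.44.

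Of the lipid enzymes and membrane proteins, Pxmp2, a channel-forming protein of the peroxisomal membrane, differed most. It read 8.67, 8.36 and 8.33 in knockout motoneurons, against 11.78, 12.25 and 11.45 in knockout nerve, and 8.40, 8.26 and 8.53 in wild type motoneurons, against 12.01, 12.17 and 11.61 in wild type nerve. These values correspond to 10.3-fold lower expression in motoneurons in knockout (difference -3.37, SE 0.21, adjusted p = 1.87e-06) and 11.6-fold lower in wild type (-3.53, SE 0.19, adjusted p = 1.95e-06). Pxmp4, another membrane protein, differed by -1.67 in knockout and -1.89 in wild type.

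Ech1, a dienoyl-CoA isomerase for unsaturated fatty acids, read 11.88, 12.23 and 11.86 in knockout motoneurons, against 14.11, 14.23 and 13.98 in knockout nerve. The difference was -2.12 (SE 0.11, adjusted p = 6.69e-07) in knockout and -2.40 (SE 0.11, adjusted p = 1.02e-06) in wild type, and no array of one tissue reached the values of the other. Hacl1, the lyase that cleaves the alpha-hydroxylated chain in alpha-oxidation, read 9.11, 9.15 and 9.02 in knockout motoneurons, against 11.41, 11.50 and 11.25 in knockout nerve. It differed by -2.29 (SE 0.13, adjusted p = 8.23e-07) in knockout and -2.19 (SE 0.15, adjusted p = 6.44e-06) in wild type. Phyh, the hydroxylase of the preceding step, did not pass in either genotype, with differences of 0.09 and -0.01.

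Agps, which makes the ether bond of plasmalogen precursors, read 11.12, 11.19 and 11.06 in knockout motoneurons, against 12.75, 12.69 and 12.80 in knockout nerve. Its difference was -1.62 (SE 0.080, adjusted p = 4.38e-07) in knockout and -1.67 (SE 0.16, adjusted p = 4.12e-05) in wild type. Gnpat, the acyltransferase of the step before, was lower by -0.46 and -0.70 on the same scale, but read 0.52 and 0.24 with centred arrays. Crat, the carnitine acetyltransferase, differed by -1.42 (SE 0.26, adjusted p = 0.00115) in knockout and -1.63 (SE 0.19, adjusted p = 0.000147) in wild type. On the quantile scale Amacr, a racemase of branched acyl-CoAs, was higher in motoneurons by 1.38 and 1.12, Decr2, a peroxisomal dienoyl-CoA reductase, by 1.15 and 1.46, and the thioesterase Acot8 by 0.98 and 0.68, in knockout and then wild type. As deposited, Decr2 read -0.25 in knockout and Acot8 -0.05 and -0.41. Hsd17b4, the bifunctional enzyme of peroxisomal beta-oxidation, was lower in motoneurons by -0.61 and -0.89, the thiolase Acaa1a by -1.03 and -1.04, and Abcd3, a transporter of branched and long chain acyl-CoAs, by -0.41 and -0.68, of which Hsd17b4 and Abcd3 turned positive with centred arrays. Acox3, Scp2 and Abcd2 passed in neither genotype.

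Adipocyte RNA was among what separated the tissues. The mean of the 8 measured adipocyte markers lay between 11.75 and 12.91 in the nerve arrays and between 5.23 and 5.60 in the motoneuron arrays, and Adipoq read at least 14.18 in nerve and at most 5.19 in motoneurons. The part of such cells, or of Schwann cells, in the members' tissue differences was not tested.

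The study asked which transcripts differ in mice without Gdap1. In motoneurons no member passed (0%, as over all genes, 0%), and the smallest adjusted p was 0.131. Of the 30 members, 10 had an unadjusted p under 0.05 (33.3%), 7 with higher and 3 with lower values in knockout, against 20.8% of all genes. Values of the groups did not overlap for 13 members (43.3%), 9 with higher and 4 with lower values in knockout, against 25.8% of all genes, 2522 higher and 2173 lower. The median difference of the members was 0.20, against 0.02 over all genes, and 0.05 when a gene's probe sets were averaged. Both shares were above those of all genes, and the excess was not tested. The share of all genes depended on brightness. In a fit of the brighter probe sets alone, 10 of the 29 members kept had an unadjusted p under 0.05, against 28.5% of all genes.

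**Figure D2:**
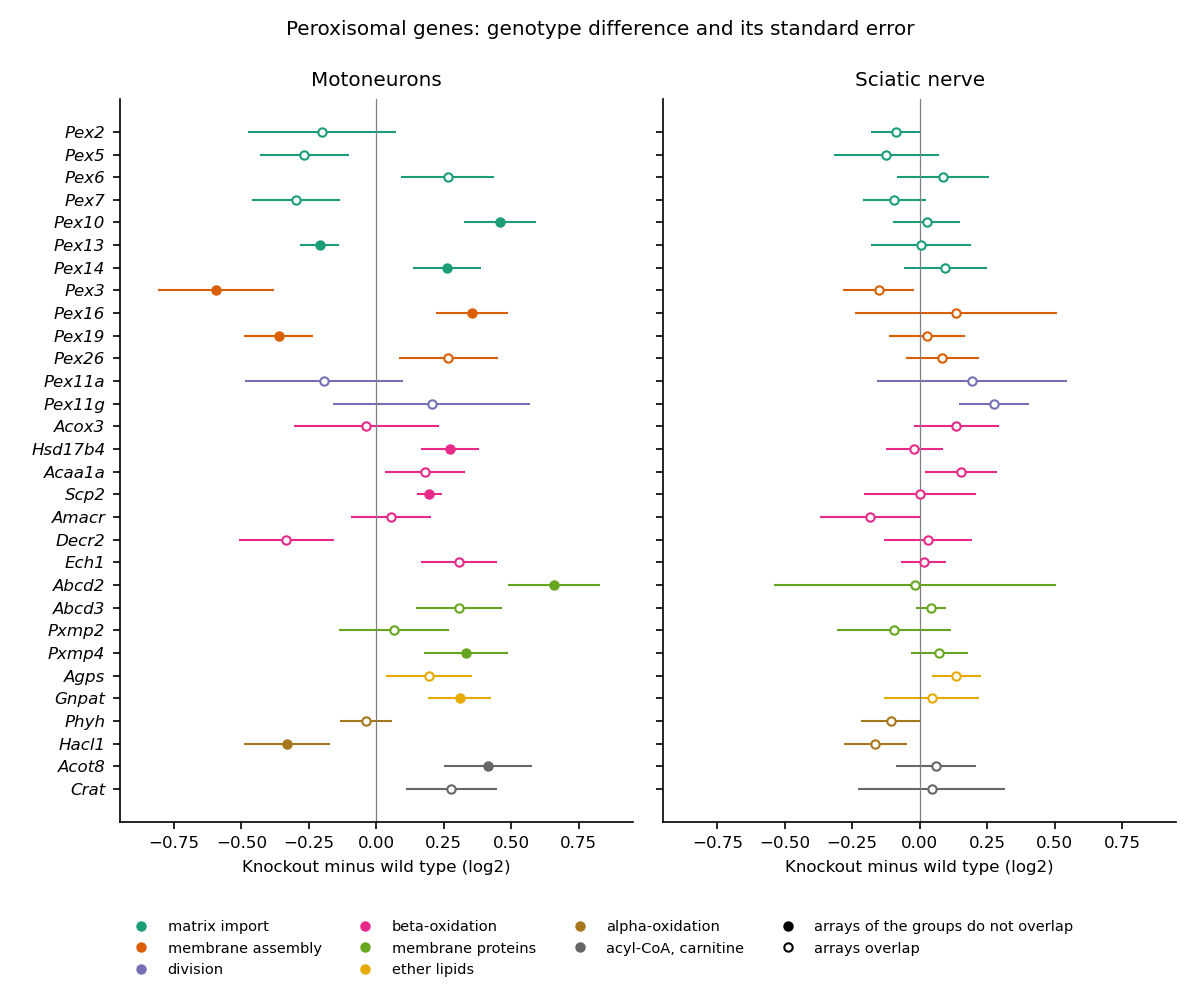
Knockout minus wild type difference of each member (x axis, log2; points, with bars of 1 standard error from limma; n = 3 arrays per group) in motoneurons (left) and sciatic nerve (right), coloured by role. Filled points mark members whose arrays did not overlap between the groups, 13 in motoneurons and 0 in nerve, and no member passed the adjusted threshold in either.

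Among lipid genes, Abcd2, an ABC transporter that brings very long chain acyl-CoAs into peroxisomes, read 12.10, 11.96 and 12.19 in knockout motoneurons, against 11.20, 11.24 and 11.82 in wild type motoneurons. All knockout values were above all wild type values, with wild type replicate 3 nearest to them, and the difference was 0.66 (SE 0.17, limma adjusted p = 0.138). Scp2, a sterol carrier and thiolase of branched-chain oxidation, read 13.39, 13.39 and 13.40 in knockout, against 13.18, 13.24 and 13.17 in wild type motoneurons. The knockout arrays were nearly equal and above every wild type array, by 0.20 (SE 0.048, adjusted p = 0.131).

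Acot8, a thioesterase that releases fatty acids from acyl-CoA, read 10.03, 10.04 and 9.94 in knockout, against 9.35, 9.56 and 9.85 in wild type motoneurons, a difference of 0.41 (SE 0.16, adjusted p = 0.263). Gnpat read 10.55, 10.48 and 10.58 in knockout, against 10.30, 10.13 and 10.26 in wild type (0.31, SE 0.12, adjusted p = 0.243). Hsd17b4 read 11.09, 11.22 and 11.23 in knockout, against 11.03, 10.87 and 10.82 in wild type (0.27, SE 0.11, adjusted p = 0.256). In these 3 genes the lowest knockout array stood above the highest wild type array, by a narrow margin for Acot8 and Hsd17b4. Pxmp4 (0.33) was also apart without reaching an unadjusted p of 0.05, as was Hacl1, whose values were lower in knockout (-0.33). The other 17 members overlapped between the groups, with differences from -0.33 (Decr2) to 0.31 (Ech1).

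The peroxins had values on both sides. Pex10 read 10.98, 10.995 and 11.10 in knockout, against 10.49, 10.40 and 10.81 in wild type motoneurons (0.46, SE 0.13, limma adjusted p = 0.165). Pex16, which places membrane proteins in new peroxisomes, read 10.56, 10.95 and 10.84 in knockout, against 10.39, 10.47 and 10.43 in wild type (0.35, SE 0.13, adjusted p = 0.244). Both were above wild type in every knockout array, as was Pex14 (0.26, adjusted p = 0.340).

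Lower values were seen for Pex3, Pex13 and Pex19. Pex3, the membrane anchor on which the chaperone Pex19 delivers its cargo, read 9.93, 9.86 and 9.64 in knockout, against 10.62, 10.66 and 9.93 in wild type motoneurons (-0.59, SE 0.21, limma adjusted p = 0.229). Pex19 itself read 10.29, 10.37 and 10.48 in knockout, against 10.80, 10.85 and 10.57 in wild type (-0.36, SE 0.13, adjusted p = 0.216). Pex13, a partner of Pex14 in docking, read 12.07, 12.03 and 11.94 in knockout, against 12.23, 12.25 and 12.18 in wild type (-0.21, SE 0.073, adjusted p = 0.216). Knockout arrays were below all wild type arrays in each case, with wild type replicate 3 the nearest and, for Pex3, equal to the highest knockout array after rounding. By role, 3 of the 7 import genes were above 0 and 4 below, and the 4 transporters and membrane proteins were all above 0, between 0.07 and 0.66.

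**Figure D3:**
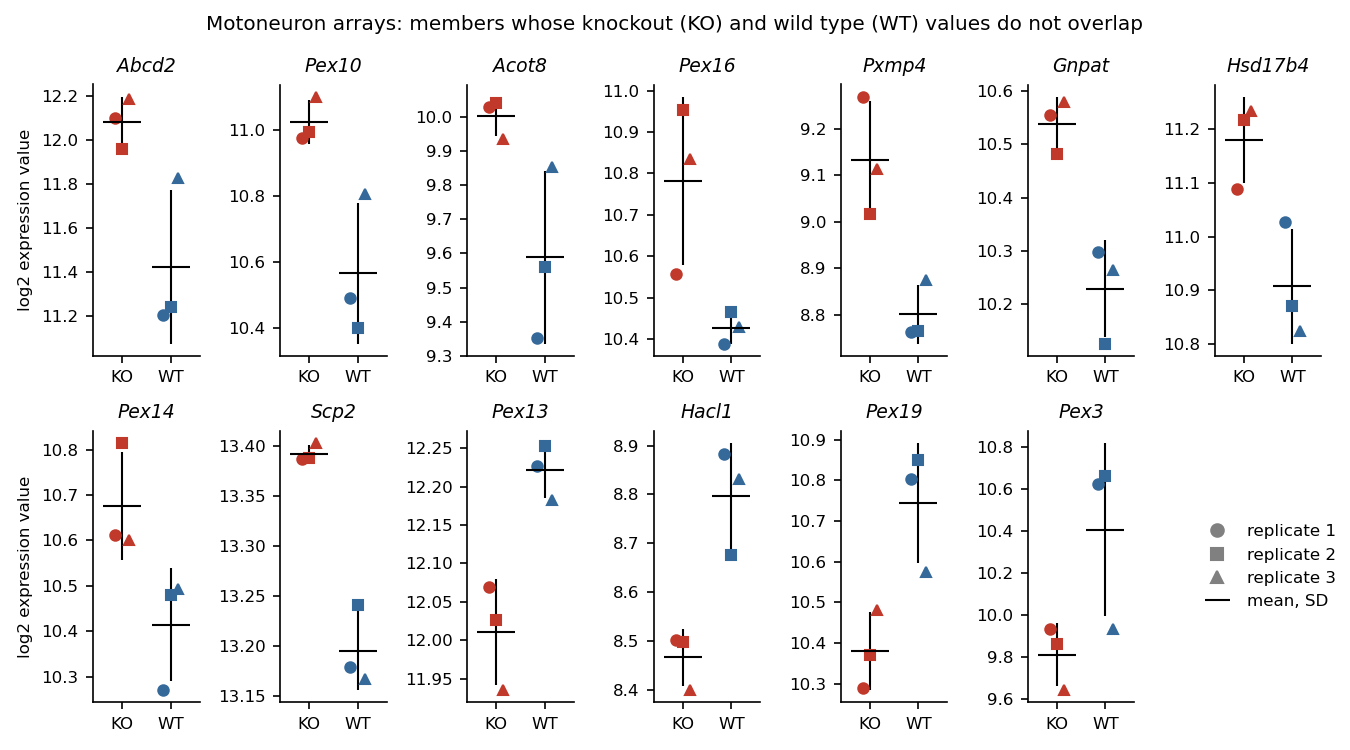
The log2 expression value (y axis, its own range in each panel) of the 13 members whose knockout (KO, left) and wild type (WT, right) motoneuron arrays did not overlap. Symbols are the 3 arrays of a group and black lines their mean and SD; wild type replicate 3, the blue triangle, is the wild type array nearest to knockout in panels such as Abcd2, Pex10, Acot8, Pex19 and Pex3.

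Motoneuron wild type replicate 3 decided how many members passed. Over all probe sets its mean correlation was 0.989 with the knockout arrays and 0.987 with the other wild type arrays, whereas wild type replicates 1 and 2 correlated better with their own group (0.990 and 0.989). For 19 of the 30 members (63.3%) it lay nearer to the knockout mean than to the mean of the other wild type arrays, against 54.9% of all genes. Without it 8 members passed, against 14% of all genes: Abcd2 (0.86, limma adjusted p = 0.00524), Abcd3 (0.52, 0.00515), Pex10 (0.58, 0.0167), Acot8 (0.55, 0.0487) and Scp2 (0.18, 0.0456) were higher in knockout, and Pex3 (-0.83, 0.0125), Pex7 (-0.46, 0.0440) and Pex19 (-0.45, 0.0494) were lower. The non-overlapping members were then 14 with higher and 8 with lower values, against 46.1% of all genes. With array weights, which lower the influence of arrays that fit poorly, Abcd2, Pex10, Scp2 and Pex3 passed, against 8.99% of all genes. Leaving out any other single motoneuron array left no member past the threshold, and the members with an unadjusted p under 0.05 were then between 3 and 8, against 13.9% to 16.8% of all genes.

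Marker and control levels also differed by genotype in these arrays. The mean of the 10 astrocyte markers was 10.39, 10.01 and 10.40 in knockout, against 10.70, 10.41 and 10.69 in wild type motoneurons (exact permutation p = 0.1), and that of the 9 measured oligodendrocyte markers was 11.06, 10.59 and 10.97, against 11.46, 10.96 and 11.12 (exact permutation p = 0.3). The endothelial marker mean was 6.73, 6.43 and 6.72 in knockout, against 7.001, 6.77 and 6.93 in wild type motoneurons, with no overlap (exact permutation p = 0.1), and the fibroblast marker mean differed by -0.31 (exact permutation p = 0.2). The spiked bioB control averaged 10.72 in knockout and 11.19 in wild type motoneurons. For 18S ribosomal RNA the knockout arrays read 14.66 to 14.67, against 13.94, 13.77 and 14.64 in wild type, with wild type replicate 3 nearest to knockout. Neither control overlapped between the groups (exact permutation p = 0.1 for each). That p is the smallest that 3 arrays against 3 can give, and was not adjusted over the 30 such tests of lists and controls. In nerve the bioB control differed by -0.88, also with no overlap (exact permutation p = 0.1). With the marker level of both glial lists as a covariate, 4 members had an unadjusted p under 0.05, all higher in knockout, against 13.1% of all genes, and with Xist as a covariate also 4, against 14.9%. The part of these measures in the members' values was not tested further.

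Probe sets of the same gene did not always move together in motoneurons, which limits single members. Of 18 members with several probe sets, 12 had differences on both sides of 0, and 2, Scp2 and Hsd17b4, had probe sets whose groups did not overlap in opposite directions. The second Scp2 probe set read 10.88, 10.79 and 10.76 in knockout, against 11.79, 11.84 and 11.30 in wild type motoneurons, a difference of -0.83 (SE 0.16, limma adjusted p = 0.108) where the brightest gave 0.20. The remaining probe sets of Scp2 gave -0.79 and -0.47. The second probe set of Hsd17b4 read 10.52, 10.65 and 10.49 in knockout, against 10.92, 10.87 and 10.66 in wild type (-0.26, adjusted p = 0.319). Pex13 was below wild type by both of its probe sets, the second at -0.71 (SE 0.15, adjusted p = 0.120), while the other probe sets of Pex3 and Pex19 gave 0.17, 0.12 and 0.03. For Abcd2 the other 3 gave 0.10, -0.08 and 0.06. The second probe set of Pex16 gave -0.40, where the brightest gave 0.35. That of Pex2 gave 0.69, with every knockout array above every wild type array, where the brightest gave -0.20 and overlapped. Which transcript each probe set reads was not analysed here.

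**Figure D4:**
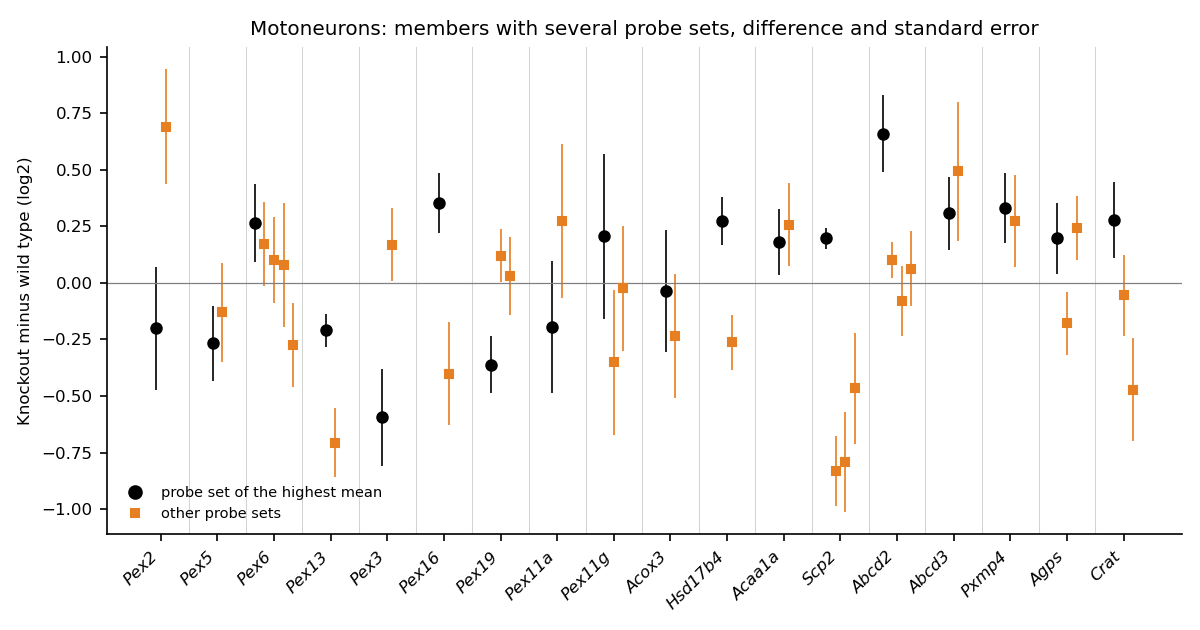
Knockout minus wild type difference in motoneurons (y axis, log2, with bars of 1 standard error from limma; n = 3 arrays per group) for the probe sets of the 18 members that have several. Black circles are the probe sets of the highest mean, orange squares the others; those of Scp2 lie on both sides of 0, at 0.20 and between -0.83 and -0.47.

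Other peroxisomal genes were measured for 51 of 60 listed, and none passed in motoneurons. Of the 51, 4 had higher and 8 had lower values in knockout at an unadjusted p under 0.05 (23.5% in all, near the 20.8% of all genes). Groups did not overlap for 5 with higher and 9 with lower values, against 25.8% of all genes. Differences were above 0 for 33 of the 51, against 52.7% of all genes, with a median of 0.10 against 0.02. The genes named next were fixed in a list and do not stand for the 51. Catalase, Cat, which removes the hydrogen peroxide of beta-oxidation, read 12.11, 12.30 and 12.07 in knockout, against 12.82, 12.83 and 12.52 in wild type motoneurons (-0.56, SE 0.11, limma adjusted p = 0.108). Acbd5, a tether to the endoplasmic reticulum, differed by -0.46 (SE 0.086, adjusted p = 0.108), Far1, a reductase for ether lipid synthesis, by -0.27 (SE 0.063, adjusted p = 0.126) and Dnm1l, the dynamin of mitochondrial and peroxisomal division, by -0.31 (SE 0.094, adjusted p = 0.178). All 4 were below wild type in every knockout array. Fis1 (0.12) and Mff (-0.07), which recruit Dnm1l, and the nuclear receptor Ppara (0.27) had no unadjusted p under 0.05.

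In sciatic nerve no member passed (0%, and 0% over all genes), none had an unadjusted p under 0.05 (2.04% of all genes) and none had groups that did not overlap (6.91%). Differences ran from -0.18 (Amacr) to 0.28 (Pex11g, limma adjusted p = 0.999956), with a median of 0.03 against -0.00192 over all genes. Pex11g read 11.32, 11.24 and 10.97 in knockout nerve, against 10.85, 10.999 and 10.85 in wild type nerve, so that one knockout array fell within the wild type range. None of the 51 other peroxisomal genes passed in nerve either, or had an unadjusted p under 0.05.

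The spread within the nerve groups was larger than the difference between them for several members. Abcd2 read 12.38, 13.12 and 11.14 in knockout nerve, against 12.53, 12.71 and 11.46 in wild type nerve. Pex16 read 11.83, 12.50 and 11.08 in knockout nerve, against 11.99, 11.87 and 11.13 in wild type nerve. Pex11a read 11.77, 12.17 and 11.04 in knockout nerve, against 11.82, 11.74 and 10.83 in wild type nerve. In each of these genes the array of replicate 3 was the lowest of its group in both genotypes, as it was for 19 of the 30 members, against 19.5% of all genes.

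Crat read 12.40, 12.72 and 11.70 in knockout nerve, against 12.45, 12.38 and 11.87 in wild type nerve, and was again lowest in replicate 3 of both groups. The adipocyte marker mean was 12.48, 12.91 and 11.75 in knockout nerve, against 12.52, 12.39 and 11.91 in wild type nerve, lowest in the same arrays. Other cell type markers moved with these arrays too. The endothelial marker mean was 11.41, 11.57 and 11.23 in knockout nerve, against 11.48, 11.39 and 11.24 in wild type nerve, and that of microglia and macrophages was 12.12, 12.31 and 11.99, against 12.05, 12.46 and 11.81, both lowest in replicate 3. The myelinating Schwann cell marker mean was highest there, at 14.06, 13.91 and 14.20 in knockout nerve, against 13.95, 13.95 and 14.17 in wild type nerve. Lep, the adipocyte hormone leptin, read 11.28, 12.06 and 10.15 in knockout nerve, against 11.14, 12.22 and 10.24 in wild type nerve. Without replicate 3 of both groups, or with the adipocyte marker mean as a covariate, the count of members that passed was still 0. The part of adipocyte RNA was not tested beyond that, and that of the other cell types was not tested.

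**Figure D5:**
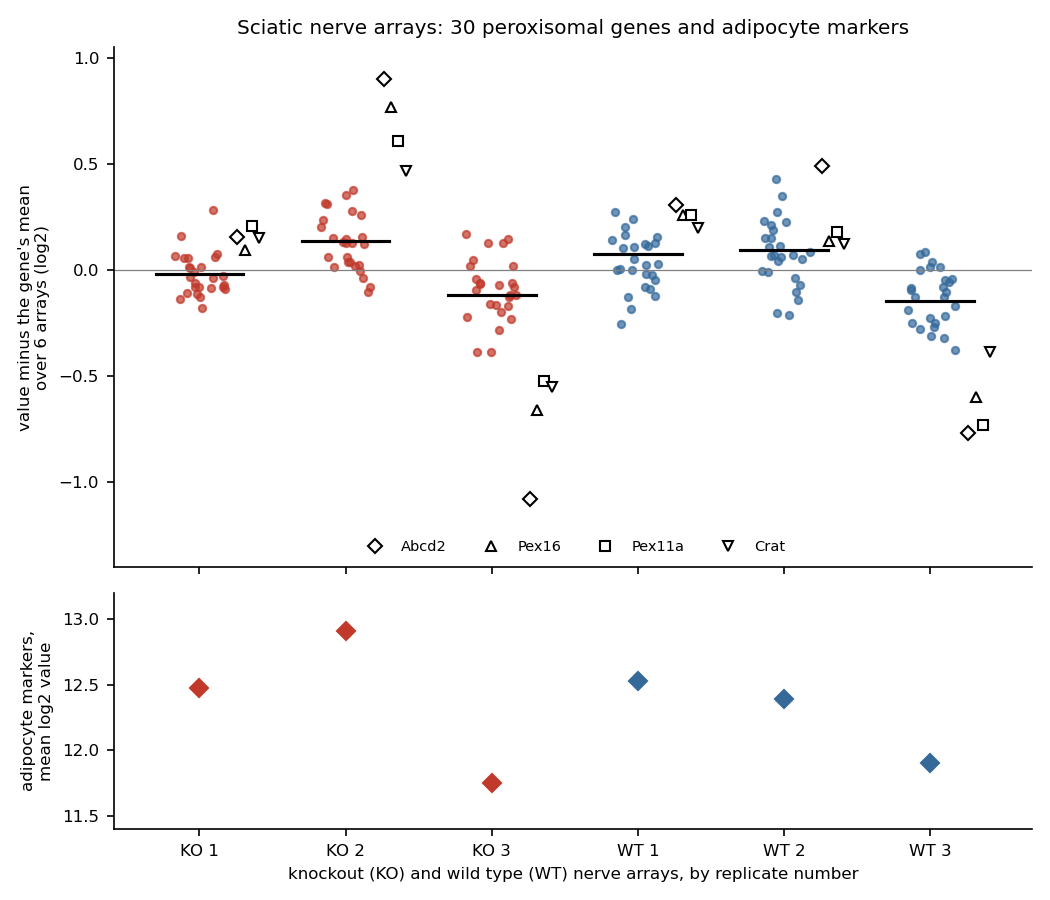
Top, value of each of the 30 members in each sciatic nerve array minus the gene's mean over the 6 nerve arrays (y axis, log2), with knockout (KO) left of wild type (WT); filled points are members, open symbols Abcd2, Pex16, Pex11a and Crat, and black bars medians. Bottom, mean log2 value of 8 adipocyte markers per array; both are lowest in replicate 3 of each group, where the markers read 11.75 in knockout and 11.91 in wild type.

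The genotype difference in motoneurons was set against that in nerve in 1 fit over all 12 arrays. No member passed (0%, and 0% of all genes), and 1 had an unadjusted p under 0.05 (9.07% of all genes). That gene was Pex10, with 0.46 in motoneurons and 0.03 in nerve, an interaction of 0.43 (SE 0.18, unadjusted p = 0.0353, limma adjusted p = 0.649). Abcd2, at 0.66 in motoneurons and -0.02 in nerve, gave 0.68 (SE 0.60, adjusted p = 0.807). Without motoneuron wild type replicate 3, 1 member passed, Abcd3 (0.47, SE 0.080, adjusted p = 0.0344), against 0.632% of all genes.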

How the data were processed

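RNA of 12 samples was hybridised to Affymetrix mouse arrays, and the authors deposited 1 log2 value per probe set and array, made with Affymetrix Expression Console 1.1 per the submitters' processing notes. How probes were summarized is not given in the sources used here. By their differing array medians the tissues appear to have been scaled apart, which the sources do not state. Of 45101 probe sets, 64 controls were left out and 45037 tested, of which 34945 had 1 gene symbol, 932 several and 9160 none in the platform annotation. RefSeq (GRCm38.p6) matched 34741 by gene identifier. limma 3.58.1 in R 4.3.3 (lmFit, eBayes with a mean trend) gave two-sided p-values, adjusted by Benjamini-Hochberg across every tested probe set with a threshold of 0.05, within tissue on deposited values for genotype, over 12 arrays for the interaction, and after joint quantile normalization for tissue. Recovery was tested on simulated data. All members are named, and 12 other genes by a fixed list, of which 7 are reported here. Members and lists were chosen with earlier results of these data known. Alternatives covered scaling, brightness, probe set choice, array weights, covariates, the replicate block and each array left out. Figures used matplotlib 3.10.9 in Python 3.11.15.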

Additional observations from a re-analysis of the deposited data

How the results depend on the processing

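In nerve no alternative brought a member past the threshold. In motoneurons 0 members passed except with array weights (4) and without motoneuron wild type replicate 3 (8; range over single arrays left out 0 to 8). The members' median there was 0.047 with a gene's probe sets averaged, 0.13 with the glial marker level as a covariate (chosen after seeing the data), and 0.11 to 0.22 with single arrays left out. For the interaction 0 to 1 member passed with single arrays left out, and the median ran from -0.014 to 0.21. Between tissues, the values as deposited gave 2 members higher and 23 lower with a median of -1.09 in knockout, and 1 higher and 20 lower with -1.17 in wild type. Centring gave 19 higher and 8 lower with 0.69 in knockout, and 15 higher with 0.59 in wild type. Averaged probe sets gave 10 higher in knockout, and 10 higher with a median of -0.11 in wild type. With single arrays left out, the wild type median ran from -0.59 to -0.23. The cause of these differences was not tested.

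The members listed next changed sign between settings and passed in at least 1 of the 2. In knockout as deposited they were Pex3 (-0.87), Pex5 (-0.30), Pex7 (-0.61), Pex13 (-0.43), Pex26 (-0.78), Phyh (-0.53), Acot8 (-0.054) and Decr2 (-0.25). Centred, they were Pex6 (0.63), Pex16 (0.76), Pex19 (0.52), Hsd17b4 (0.48), Abcd3 (0.93), Gnpat (0.52) and Scp2 (1.17). In wild type as deposited they were Pex5 (-0.16), Pex10 (-0.19), Pex13 (-0.21), Pex26 (-0.96) and Acot8 (-0.41). Centred, they were Pex19 (0.89), Hsd17b4 (0.17), Abcd2 (0.95), Abcd3 (0.65), Gnpat (0.24), Phyh (1.16) and Scp2 (0.96). Of these, the ones that passed on the quantile scale were Pex5, Acot8, Decr2, Pex19, Hsd17b4, Abcd3 and Gnpat in knockout, and Pex5, Pex10, Pex13, Acot8, Hsd17b4, Abcd3 and Gnpat in wild type. Averaged probe sets turned Pex6 (0.67 in knockout, 0.71 in wild type) and Acox3 (0.63 and 0.88).

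Same-numbered arrays were not treated as pairs in the fits above. Deviations of same-numbered knockout and wild type arrays correlated at 0.03, 0.31 and 0.22 in nerve, against -0.30 to 0.09 for differently numbered arrays. Nerve replicates 2 and 3 thus moved partly together by number. In motoneurons the same-numbered values were 0.09, -0.06 and -0.08, within the range of -0.12 to 0.15 for differently numbered arrays. With the replicate block 0 members passed in either tissue, the motoneuron median stayed at 0.20 and the members with an unadjusted p under 0.05 there were 6 in place of 10. Depth has no counterpart on arrays, and 3 per group limit the precision.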

Other observations

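Other peroxisomal genes differed between the tissues about as often as all genes. On the quantile scale 24 of the 51 measured were higher (47.1%) and 15 lower (29.4%) in knockout motoneurons than in knockout nerve by limma, against 44.5% and 31.8% of all genes. In wild type 21 were higher (41.2%) and 16 lower (31.4%), against 43.1% and 30.6%. The median was 0.28 in both, against 0.25 and 0.23 over all genes. Dnm1l, the dynamin that cuts peroxisomes and mitochondria, was higher in motoneurons by 1.36 (SE 0.069, limma adjusted p = 5.09e-07) in knockout and 1.61 (SE 0.11, adjusted p = 7.13e-06) in wild type. Its difference was 0.72 and 1.004 as deposited and 2.50 and 2.76 with centred arrays. Ppara, the nuclear receptor that induces many peroxisomal enzymes in liver, was lower in motoneurons by a difference of -2.73 (SE 0.27, adjusted p = 2.99e-05) in knockout and -2.81 (SE 0.19, adjusted p = 7.97e-06) in wild type. It was also lower as deposited (-4.39 and -4.49) and centred (-2.61 and -2.73). Its motoneuron arrays read 4.24 to 5.07 as deposited, below the array medians, so the size of its difference rests on low readings. Catalase differed by -0.82 (SE 0.088, adjusted p = 4.71e-05) in knockout and -0.38 (SE 0.10, adjusted p = 0.0114) in wild type on the quantile scale, and turned to 0.38 and 0.85 with centred arrays.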
